A study of Mus musculus with 22 samples.

Results

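In livers of mice injected with tunicamycin (Tm), 96 longer loci held less of their mRNA in heavy polysomes at both 2 h and 4 h than at 0 h. They were chosen by measured values, from 39897 loci in all. The authors' mean for heavy polysomal RNA was divided by their mean for total RNA of the same time point, and this ratio had to be at least 1.5-fold lower at 2 h and at 4 h than at 0 h. A locus had to have a completed estimate in all 6 group means and an average of at least 50 scaled fragments over them, which left 9383 base loci. It also had to be above the 20th percentile of relative length, which left 7502. Cufflinks gives each cluster of overlapping transcripts a locus number, and the files pair these numbers with neither gene names nor positions, so no gene, function or sequence is given here and the liver identity of the samples could not be checked against marker genes.

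The mice were 5-week-old C57BL/6 males, injected intraperitoneally with 0.1 mg/kg Tm at 8 am. Those of the 2 h group were culled at 10 am, those of the 4 h group at noon and the 0 h controls at 9 am, so time of day and time after injection cannot be told apart. The labels list tunicamycin for the 0 h mice as well, and the methods do not say whether these mice were injected. Total RNA was sequenced in 3 libraries at each of 0 h, 2 h and 4 h, and heavy polysomal RNA (pooled sucrose gradient fractions with more than 3 ribosomes) in 2 labelled libraries at 0 h, 2 at 2 h and 3 at 4 h. The 12 libraries used one by one had from 9788578 to 17283500 counted fragments. The polysomal means at 0 h and 2 h were made from 3 read groups each, which could not be tied to the 2 labelled libraries, so these means have no spread here. Because the polysomal mean at 0 h enters both changes of the ratio, no change of the ratio has a test.

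Tm blocks N-linked glycosylation and so makes unfolded proteins accumulate in the endoplasmic reticulum. The kinase PERK then phosphorylates the initiation factor eIF2α, fewer ribosomes start on most mRNAs, and polysomes shrink. An mRNA in active translation carries several ribosomes and sinks into the heavy fractions of a sucrose gradient, and an mRNA with few ribosomes stays near the top, so the share of an mRNA found in heavy polysomes is read as its translational efficiency. A short coding sequence has room for few ribosomes only. Both fractions were scaled to their own libraries, so a loss of polysomes common to all mRNAs was not visible, and a value below is relative to other mRNAs of the same fraction. In a whole liver, fewer cells of a type and less RNA per cell cannot be told apart.

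At 0 h the 96 loci had high ratios. Their median log2 ratio of polysomal over total RNA was 0.63 (from -0.86 to 1.80), against -0.14 over the 7406 other longer loci. Shorter loci had higher ratios at 0 h, and in the 2 bins of length that held 37 and 16 of the 96 (bins 3 and 4 of the base loci split into 10 by length) the median of all base loci was 0.23 and 0.12. Of the 96, 84 were above the 75th percentile of the longer loci, also 0.23. Among the longer loci their median ratio stood at percentile 93.2 at 0 h, 33.3 at 2 h and 44.8 at 4 h. The median log2 ratio was -0.14 at 2 h and -0.06 at 4 h. The ratio was above 0 for 90 loci at 0 h, for 30 at 2 h and for 37 at 4 h, and 60 went from above 0 at 0 h to under 0 at 2 h. The 0 h ratio enters both changes, so the high start and the later fall of these loci are not separate facts.

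**Figure D1:**
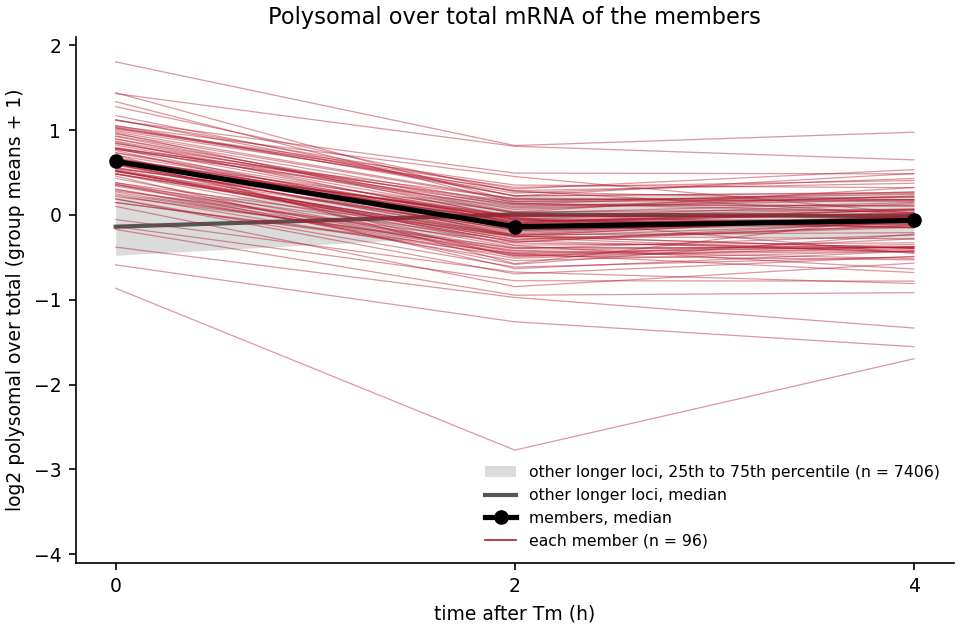
Polysomal over total mRNA on the log2 scale (authors' group means plus 1, y axis) at 0 h, 2 h and 4 h after Tm (x axis). Each thin red line is 1 of the 96 loci, the black line is their median, and the grey band and line are the 25th to 75th percentile and the median of the 7406 other longer loci. The median of the 96 loci starts at 0.63 and lies at -0.14 and -0.06 later.

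The median log2 change in the ratio was -0.77 at 2 h, a fall of 1.71-fold, with a range from -1.91 to -0.59. At 4 h it was -0.69, a fall of 1.62-fold, with a range from -1.30 to -0.59. The other longer loci changed by a median of 0.13 at 2 h and 0.12 at 4 h, so in relative terms they moved slightly into heavy polysomes while the 96 loci moved out. The upper ends of both ranges are set by the threshold of 1.5-fold. The fall was 2-fold or more for 9 loci at 2 h and for 7 at 4 h, and for 3 at both, which were XLOC_036163, XLOC_014389 and XLOC_011778.

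The course between 2 h and 4 h is limited by the rule, which left out loci whose ratio had come back within 1.5-fold by 4 h. The ratio at 4 h was above that at 2 h by a median of 0.07 on the log2 scale, and the fall was larger at 2 h for 62 loci and at 4 h for 34. From 2 h to 4 h, 1 locus (XLOC_014265) rose by 1.5-fold or more in its ratio and 0 fell by as much. This rise rests on total 2 h replicate 1. Without it the ratio of XLOC_014265 changed by -0.37 at 2 h and -0.83 at 4 h, so the direction between the time points turned. Falls at one time point only were more frequent at 2 h, where 156 longer loci passed the threshold at 2 h alone, against 49 at 4 h alone. Of these, 154 and 42 were also below their 0 h ratio at the other time point. The shared 0 h means enter both changes, and the counts carry no test for that reason.

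**Figure D2:**
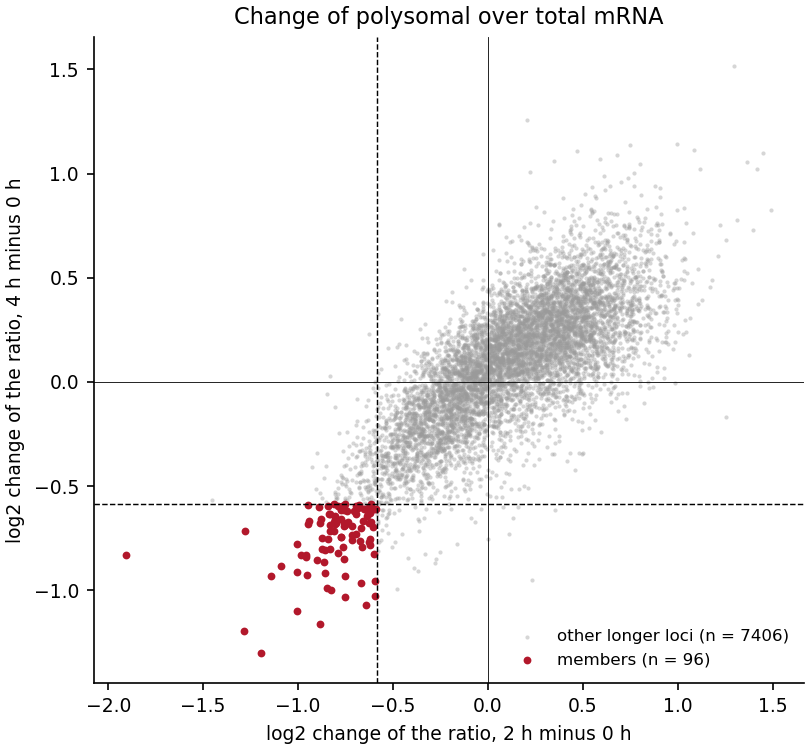
Log2 change of polysomal over total mRNA at 2 h (x axis) and at 4 h (y axis), both against 0 h, for the loci above the length limit. Red points are the 96 loci that passed the 1.5-fold threshold (dashed lines) at both times, and grey points are the 7406 others, whose medians are 0.13 and 0.12.

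The ratio is made of both fractions, so their changes describe how the loci met the rule and are no separate result. At 2 h the median log2 change of the 96 loci was -0.67 in polysomal RNA and 0.06 in total RNA. At 4 h it was -0.55 and 0.19. The polysomal mean was under its 0 h value for 91 loci at 2 h and for 85 at 4 h, beside 35.8% and 39.0% of the other longer loci, a contrast that the rule set up. It was lower by 1.5-fold or more for 65 loci at 2 h, and for 62 of these the total mean stayed within 1.5-fold of 0 h. At 4 h these numbers were 44 and 41. The level in heavy polysomes was down by 1.5-fold or more at both times for 40 loci, at 2 h only for 25, at 4 h only for 4 and at neither for 27.

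The remaining loci met the rule by a more abundant total mRNA that heavy polysomes did not follow in full, or by smaller moves of both. The total mean was higher by 1.5-fold or more for 7 loci at 2 h and for 14 at 4 h, and lower by as much for 1 and 3. Both means stayed within 1.5-fold of 0 h for 26 loci at 2 h and for 38 at 4 h. At 4 h the polysomal mean itself was higher than at 0 h by 1.5-fold or more for 5 loci, all with a total mean that rose further.

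**Figure D3:**
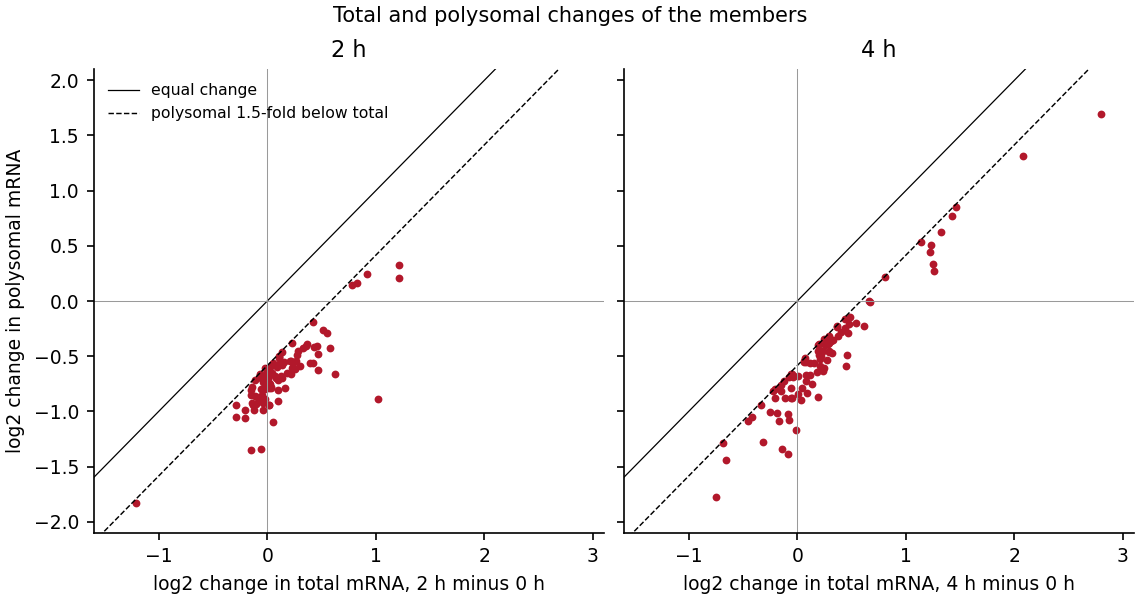
Log2 change in total mRNA (x axis) and in heavy polysomal mRNA (y axis) of the 96 loci, at 2 h (left) and 4 h (right) against 0 h. Each point is 1 locus, the solid line marks equal change and the dashed line a polysomal change 1.5-fold below that of total mRNA, which all points lie on or under by the rule. Most points lie near 0 on the x axis and below 0 on the y axis, and at 4 h a tail of loci lies to the right.

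The clearest cases had a flat total level. XLOC_036163 had 610.1, 618 and 613 scaled fragments in total RNA at 0 h, 504, 608 and 549 at 2 h and 532, 555 and 652 at 4 h. The authors' polysomal means over the 3 time points were 1550, 609 and 592, and the 3 polysomal libraries at 4 h had 513, 563 and 702. Total RNA of all 9 libraries thus lay between 504 and 652 while the polysomal mean came down to the total level. The log2 ratio of XLOC_036163 changed by -1.20 at 2 h and by -1.30 at 4 h, the latter the largest fall of the longer loci at 4 h.

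XLOC_014389 behaved alike, with 378, 371 and 412 scaled fragments in total RNA at 0 h, 360.0, 312 and 447 at 2 h and 360.0, 346 and 344 at 4 h. Its polysomal mean was 1053 at 0 h and 416 and 415 at 2 h and 4 h, with 304, 409.9 and 532 in the libraries at 4 h. Here the 4 h polysomal libraries were spread more widely than the total ones, and 2 of them were above every total library at 4 h. Its ratio at 0 h (1.44 on the log2 scale) was the highest of the 8 loci with the largest mean fall, and it changed by -1.28 and -1.20.

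XLOC_036643 and XLOC_010648 went from a ratio above 0 to one below it. For XLOC_036643 the total libraries had from 228 to 318 scaled fragments over the 3 time points, and the polysomal mean was 418, 195 and 206 from 0 h to 4 h. XLOC_010648 had 518, 513 and 545 scaled fragments in total RNA at 0 h and 502, 477 and 588 at 4 h, and its polysomal mean was 756, 398 and 335. Its polysomal libraries at 4 h, with 340.0, 306 and 360.2, were all below its total libraries. Polysomal against total mRNA of XLOC_010648 at 4 h differed by -0.64 on the log2 scale (standard error 0.13, edgeR adjusted p = 0.00473 with Benjamini-Hochberg adjustment), which is under the 2-fold that a call needed.

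Of the 8 loci with the largest mean fall over both times, 2 had few fragments. XLOC_014286 had 39.1, 70.3 and 51.4 scaled fragments in total RNA at 0 h, 73.6, 79.6 and 70.1 at 2 h and 53.9, 55.6 and 67.4 at 4 h. Its polysomal mean was 74.0, 47.7 and 43.6 from 0 h to 4 h, with 51.4, 42.5 and 37.0 in the libraries at 4 h. The ratio of XLOC_014286 changed by -1.09 and -0.88. XLOC_030749 had 41.1, 30.0 and 36.7 in total RNA at 0 h, 51.6, 51.3 and 64.5 at 2 h and 93.2, 127 and 36.4 at 4 h. In the polysomal libraries at 4 h it had 81.5, 133 and 40.6, so the third library was low in both fractions. Its ratio changed by -1.28 at 2 h and -0.72 at 4 h, and the value at 4 h was -0.32 without total 4 h replicate 2 and -1.19 without polysomal 4 h replicate 2.

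XLOC_014265 was the most abundant of the 96 loci, at 772 ± 128 FPKM (fragments scaled to locus length and library size, SD, n = 3) in total RNA at 0 h. Its total RNA had 24194, 22511 and 16375 scaled fragments at 0 h, 98236, 11656 and 17733 at 2 h and 22488, 25195 and 13280 at 4 h. A single library at 2 h was thus far above the other 8. The polysomal mean was 11551 before Tm, then 6229 and 6274, with 6849, 6346 and 5628 in the libraries at 4 h. The ratio changed by -1.91 at 2 h, the largest fall among the 9383 base loci, and by -0.83 at 4 h. Without total 2 h replicate 1 the change at 2 h was -0.37, under the threshold, and the locus was then no longer among the 96.

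XLOC_011930 and XLOC_007760, also among the 6 most abundant, had little spread in total RNA. XLOC_011930 (107 ± 4.64 FPKM in total RNA at 0 h, SD, n = 3) had from 1972 to 2328 scaled fragments in the 9 total libraries, and its polysomal mean was 4020, 2320 and 2527 over the 3 time points. XLOC_007760 (42.2 ± 2.92 FPKM) had from 1709 to 1925 in the total libraries, and its polysomal mean was 2689, 1696 and 1700. Both had an even total level and a polysomal mean that dropped by 2 h and stayed there. The polysomal libraries at 4 h held 2129, 2514 and 2937 scaled fragments for XLOC_011930 and 1497, 1486 and 2117 for XLOC_007760. Replicate 3 was the highest for both.

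XLOC_011911 (36.2 ± 4.79 FPKM in total RNA at 0 h, SD, n = 3) had a different start, with a log2 ratio of -0.17 at 0 h. Its total RNA was 1228, 1128 and 1249 scaled fragments at 0 h and 1471, 1462 and 1474 at 4 h, and its polysomal mean was 1067, 660 and 778. The polysomal libraries at 4 h (790.1, 715 and 829) were all well below the total ones. The log2 difference of polysomal from total mRNA at 4 h was -0.92 (standard error 0.11, edgeR adjusted p = 0.000352 with Benjamini-Hochberg adjustment). For XLOC_008519 (60.0 ± 5.68 FPKM) the means of both fractions were higher at 4 h than at 0 h. Its total RNA had 963, 1095 and 1075 scaled fragments at 0 h and 1734, 1912 and 1854 at 4 h, and its polysomal mean was 2129, 1513 and 2470. The polysomal libraries at 4 h had 1931, 2515 and 2963, so replicate 1 was under the 0 h mean.

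Over the whole group, total RNA was compared between time points with edgeR's quasi-likelihood test and Benjamini-Hochberg adjustment over 12606 loci, at an adjusted p under 0.05 and at least 2-fold. Total RNA entered the rule, so these counts describe the loci and nothing is read from them. At 2 h, 2 of the 96 were called, both higher, where 0.317% of all loci tested were called higher, and 15 had an unadjusted p under 0.05, beside 11.8% of all loci tested. At 4 h, 10 were called higher, beside 5.08% of all loci tested, and 0 lower, beside 3.47%. With no minimum fold, 24 were called higher at 4 h, beside 17.8%, and 3 lower, beside 12.7%. The 3 libraries at 2 h were all above those at 0 h for 20 of the 96, beside 10.4% of base loci, and all below for 4, beside 6.85%. The 3 at 4 h were all above for 40, beside 29.1%, and all below for 10, beside 21.9%.

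The largest rise was at XLOC_011778, which had 1334, 691 and 1360 scaled fragments in total RNA at 0 h, 3181, 2172 and 2492 at 2 h and 7054, 8770.2 and 7690 at 4 h. The 3 time points did not overlap. The log2 change from edgeR was 1.21 at 2 h (standard error 0.23, adjusted p = 0.0348 with Benjamini-Hochberg adjustment) and 2.80 at 4 h (standard error 0.24, adjusted p = 7.29e-06). Its polysomal mean was 2733, 3159 and 8855 at 0 h, 2 h and 4 h. Both fractions of this locus therefore grew, and the ratio was 2-fold lower at 2 h and changed by -1.10 on the log2 scale at 4 h as total RNA grew more. The call at 2 h was lost without total 0 h replicate 1, total 0 h replicate 2, total 2 h replicate 1 or total 2 h replicate 3, and with the 2 time points fitted alone.

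XLOC_021486 and XLOC_028768 also rose in total RNA by 4 h, at a low level, and for XLOC_021486 the 2 h and 4 h libraries overlapped. XLOC_021486 had 61.1, 42.6 and 50.3 scaled fragments in total RNA at 0 h, 129, 117 and 114 at 2 h and 108, 160.4 and 152 at 4 h. Its log2 change in edgeR was 1.23 at 2 h (standard error 0.19, adjusted p = 0.0139 with Benjamini-Hochberg adjustment) and 1.46 at 4 h (standard error 0.19, adjusted p = 0.00015), and its call at 2 h was lost without total 0 h replicate 2 or total 2 h replicate 1. XLOC_028768 had 41.1, 54.0 and 41.9 at 0 h, 121, 68.7 and 72.4 at 2 h and 200.1, 189 and 199 at 4 h. For XLOC_028768 the edgeR log2 change was 2.08 at 4 h (standard error 0.21, adjusted p = 2.66e-05), and its fall in the ratio at 2 h was -0.37 without total 2 h replicate 1, against -0.67 with it. The other 7 loci called at 4 h had log2 changes from 1.15 (XLOC_001847) to 1.46 (XLOC_010888), and of these XLOC_030749 was lost without total 0 h replicate 2 or total 4 h replicate 2.

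At 4 h the ratio could be tested as such, with 3 libraries of each fraction and edgeR over 12575 loci, though the value at 4 h is part of the rule. Libraries with the same number in both fractions deviated together, and this fit did not use that pairing. Of the 96 loci, 3 were called lower in polysomal than in total RNA, beside 3.18% of all loci tested, and 0 were called higher, beside 1.34%. With no minimum fold 16 were lower, beside 14.7%, and 2 were higher (XLOC_014093 and XLOC_033130), beside 11.6%. An unadjusted p under 0.05 was found for 34, beside 39.4%. XLOC_014093 was higher by 0.99 on the log2 scale (standard error 0.25, edgeR adjusted p = 0.0141 with Benjamini-Hochberg adjustment), just under the 2-fold of a call, and it passed in DESeq2 and in several other settings. For 29 of the 96 all polysomal libraries were below all total libraries at 4 h, beside 25.6% of base loci, and for 7 all were above, beside 22.8%. Nothing is read from these counts.

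The 3 loci called lower also had low ratios at 0 h. The rule required a fall of every locus, so a low start and a low ratio at 4 h are not separate facts. XLOC_014265, XLOC_033126 and XLOC_027756 had log2 ratios of -0.86, -0.59 and -0.38 at 0 h, and they were the lowest of the 96, of which 6 were under 0 at 0 h. XLOC_033126 had 89.8, 111 and 87.4 scaled fragments in total RNA and 30.1, 36.6 and 29.7 in polysomal RNA at 4 h, a log2 difference of -1.59 (standard error 0.18, edgeR adjusted p = 0.000274 with Benjamini-Hochberg adjustment). XLOC_027756 had 113, 125 and 145 in total RNA and 41.1, 61.2 and 47.8 in polysomal RNA, a difference of -1.36 (standard error 0.18, adjusted p = 0.000612). The difference was -1.70 for XLOC_014265 (standard error 0.21, adjusted p = 0.000384). In each the fractions did not overlap.

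These 3 were the lowest, but the ends of the 2 h to 4 h course were at other loci as well. Between 2 h and 4 h the ratio rose most at XLOC_014265 (where it fell without total 2 h replicate 1), XLOC_030749 and XLOC_009141. For XLOC_030749 the change was -1.28 at 2 h and -0.72 at 4 h. At 4 h it was -1.19 without polysomal 4 h replicate 2 and -0.32 without total 4 h replicate 2. Both libraries carry the same number, and leaving out both at once was not run. XLOC_009141 had a log2 ratio of 0.37 at 0 h, -0.58 at 2 h and -0.23 at 4 h. It fell most at XLOC_005362, XLOC_021782 and XLOC_027756. XLOC_005362 had 44.9, 70.3 and 40.9 scaled fragments in total RNA at 0 h and 23.1, 39.3 and 29.1 at 4 h, and its polysomal mean went from 109 at 0 h to 68.2 at 2 h and 30.9 at 4 h. XLOC_021782 kept a total mean of 53.0, 51.0 and 60.8 while its polysomal mean was 81.6, 49.9 and 44.1. All of them but XLOC_014265 had at most 145 scaled fragments in the libraries used, where counting error is largest.

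The rule used length only as a limit, and the 96 loci were still short for loci above it. Relative length is the number of fragments per FPKM, set to 1 at the median of each total 0 h library. The median relative length of the 96 was 0.73 (0.53 to 2.40). With the base loci split by length into 10 equal bins, bins 3 to 10 held 37, 16, 12, 16, 8, 4, 2 and 1 of them, which is 3.94% of bin 3 and 0.107% of the longest. Under the limit, 380 of the 938 shortest loci and 114 of the next bin were lower at both times, 494 of the 590 such loci of any length. Those 494 started from a median log2 ratio of 0.69 and changed by -0.91 at 2 h and -0.86 at 4 h. For the 96 longer loci these medians were 0.63, -0.77 and -0.69. The same threshold chose both sets and the 0 h ratio enters it, so nothing is read from how the medians compare.

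**Figure D4:**
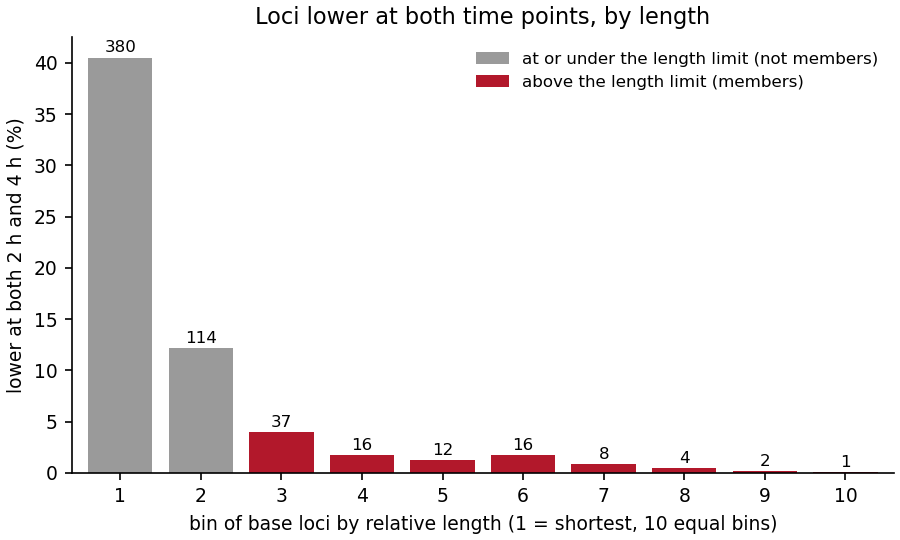
Percent of base loci whose ratio was at least 1.5-fold lower at both 2 h and 4 h (y axis), by bin of relative length from 1, the shortest, to 10, the longest (x axis), with the number of loci above each bar. Grey bars are the bins at or under the length limit and red bars hold the 96 loci. The share goes from 40.5% in bin 1 to 3.94% in bin 3 and 0.107% in the longest.

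Across the 9378 base loci with a length, Spearman's correlation of length with the change in the ratio was 0.50 at 2 h and 0.47 at 4 h, and with the 0 h ratio it was -0.46. These points share their libraries and the 0 h means, so the values are descriptions. Within the 96 loci the correlation of length with the change was 0.15 at 2 h and -0.04 at 4 h. The 4 longest were XLOC_012554 (2.40), XLOC_027756 (1.90), XLOC_005362 (1.81) and XLOC_034886 (1.73). XLOC_012554 had from 490.3 to 717 scaled fragments in the total libraries and a polysomal mean of 629, 383 and 403 at 0 h, 2 h and 4 h. XLOC_034886 had 197, 163 and 130.0 in total RNA at 0 h and 224, 263 and 264 at 4 h, with a polysomal mean of 281, 190.3 and 240.2.

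Length also moved with single libraries. The deviation of a library from its group mean correlated with length across base loci by 0.43 in polysomal 4 h replicate 1, by -0.09 in replicate 2 and by -0.24 in replicate 3, and in the total libraries by values from -0.45 to 0.37. The part of this in the falls was not tested, and the polysomal libraries at 0 h and 2 h could not be looked at one by one. With the median trend over 50 bins of length taken away, 114 loci met the rule, of which 75 were among the 96.

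The polysomal libraries at 4 h gave unlike sizes of the fall. With replicate 1 in place of the mean of 3, the median log2 change of the 96 loci at 4 h was -0.88 and 90 loci passed 1.5-fold. With replicate 2 it was -0.75 and 79 passed, and with replicate 3 it was -0.57 and 46 passed. With single total libraries the median change ran from -0.81 to -0.72 at 2 h and from -0.76 to -0.68 at 4 h. All 9 pairs of a polysomal with a total library at 4 h were under the 0 h ratio for 92 of the 96 loci, beside 20.3% of base loci, and all 9 were lower by 1.5-fold for 19, beside 2.79%. The rule chose the loci on the means of these same libraries, so nothing is read from the pairs. The median SD of log2 values between the polysomal libraries at 4 h was 0.21 for the 96 loci and 0.18 for base loci (n = 3), against 0.12 to 0.15 for the 96 loci in total RNA.

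**Figure D5:**
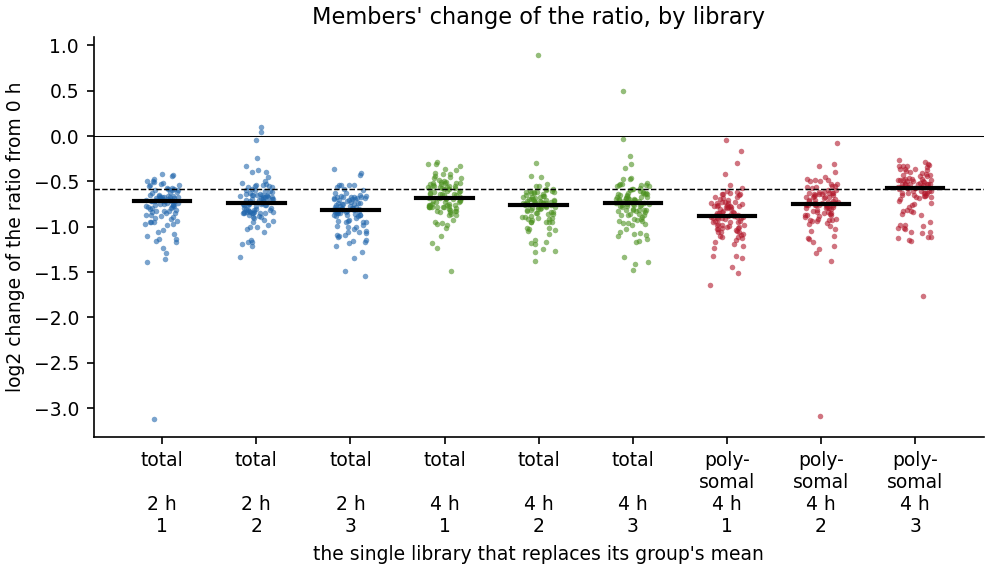
Log2 change in the ratio from 0 h (y axis) of the 96 loci when 1 library (x axis) replaces its group's mean, for total RNA at 2 h and 4 h and polysomal RNA at 4 h. Each point is 1 locus, black bars are medians and the dashed line is the 1.5-fold threshold. Medians lie from -0.88 to -0.57, both in polysomal libraries at 4 h, and the far points are XLOC_014265 (total 2 h, replicate 1), XLOC_001609 (both 4 h libraries numbered 2) and XLOC_030749 (total 4 h, replicate 3).

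XLOC_001609, named after its values were seen, stands out in that plot. It had 174, 32.7 and 113 scaled fragments in total RNA at 4 h and 281, 33.2 and 189 in polysomal RNA, so both libraries numbered 2 were low. Its total RNA had 132, 164 and 212 at 0 h and 90.5, 43.6 and 83.7 at 2 h. It was the only one of the 96 whose total mean was lower by 1.5-fold or more at 2 h.

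The 96 loci made up 0.546% of base fragments in total RNA at 0 h, 0.768% at 2 h and 0.667% at 4 h. The value at 2 h rests on total replicate 1, where the share was 1.30%, against 0.477% and 0.514% in the other libraries. In heavy polysomal RNA they made up 0.672%, 0.403% and 0.523%. XLOC_014265 decided much of this, and without it the other 95 had 0.335%, 0.348% and 0.461% of total RNA and 0.553%, 0.339% and 0.458% of polysomal RNA. These 95 held more of polysomal than of total RNA at 0 h, and at 2 h and 4 h about as much of one as of the other. The rule required a lower ratio of each locus at both later times, so this shift is no separate result. The median level of the 96 loci was 228 scaled fragments in total RNA at 0 h, against 273 for base loci.

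The threshold divides loci that differ little. Just inside it at 4 h were XLOC_033130, XLOC_009180 and XLOC_021504, each with a log2 change of -0.59 at 4 h and of -0.81, -0.62 and -0.75 at 2 h. Just outside were XLOC_028475 (-0.66 at 2 h and -0.58 at 4 h), XLOC_022464 (-0.58 and -0.64) and XLOC_004889 (-0.65 and -0.58). XLOC_004889 was abundant, with means of 13802, 13408 and 12773 scaled fragments in total RNA and 19083, 11842 and 11795 in polysomal RNA. With each of the 12 libraries left out in turn, 36 of the 96 loci met the rule every time and 60 failed it at least once. All 96 stayed under their 0 h ratio at both times. None of the 12 was a polysomal library at 0 h or 2 h, and the rule chose the loci on these same means. Leaving out a total 0 h library also changed the relative lengths, so some loci, such as XLOC_028977, failed by length alone. Nothing is therefore read from these counts.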

How the data were processed

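Mouse liver total and heavy polysomal RNA was sequenced as stranded poly(A) libraries (single-end reads). The authors aligned reads with TopHat 2.0.13 to a GRCm38 transcriptome and ran Cuffdiff of Cufflinks 2.2.1 with bias and multi-read corrections. The annotation release is not given in the sources used here. The authors deposited, per locus and library, the count of fragments, unscaled, and the FPKM value. They also deposited scaled fragments, a signal made by dividing counts by library size factors set across the whole table, and its mean per group. The first pool's tables, used here, have 39897 loci. 69 of 81 read groups and 21 of 27 group means were not used. The labels put the 10 h samples in another library pool, while the methods describe a single pool. Their table numbers its loci separately and was not analysed here.

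Ratios were log2(polysomal mean + 1) minus log2(total mean + 1), computed with Python 3.11.15, numpy 2.4.6 and pandas 2.3.3. The tests on counts used R 4.3.3 and edgeR 4.0.16 (quasi-likelihood after TMM scaling and filterByExpr, Benjamini-Hochberg adjustment over all loci), with 9 total libraries in one fit, and with 6 libraries at 4 h in another. DESeq2 1.42.0 was an alternative. The code was tested on simulated data. The labels do not tie each library to an animal, so the p-values measure the spread between these libraries. Total and polysomal 4 h libraries with the same number deviated together from their group means (correlations from 0.46 to 0.49 across loci, against -0.33 to -0.12 for other numbers), so the numbers pair them.

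Loci were named by rank: the 8 with the largest mean fall, the 6 most abundant, the 4 longest, the 3 with the largest called rise in total RNA at 4 h, the 3 at each end of the 2 h to 4 h change, the 3 lowest in polysomal against total RNA at 4 h among those called, and the 3 on each side of the threshold. The loci, the rule and these lists were chosen with earlier results of these data known.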

Additional observations from a re-analysis of the deposited data

Results flagged for a closer look

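In 4 of the loci named here the change in total RNA differed between 2 h and 4 h by a test of the difference itself, at an adjusted p under 0.05 with no minimum fold. Among all 96 loci 17 passed this test, beside 26.2% of all loci tested. Total RNA entered the rule, and XLOC_011778 and XLOC_028768 were also named by their rise in total RNA at 4 h. The values below therefore describe these loci and nothing is read from them. XLOC_011778 rose by 1.21 on the log2 scale at 2 h and by 2.80 at 4 h, a difference of 1.59 (edgeR adjusted p = 0.000468 with Benjamini-Hochberg adjustment). XLOC_028768 changed by 0.91 at 2 h, which did not pass the test, and by 2.08 at 4 h, a difference of 1.17 (edgeR adjusted p = 0.00157). XLOC_010888 changed by 0.22 at 2 h, which did not pass, and by 1.46 at 4 h, a difference of 1.24 (edgeR adjusted p = 1.35e-05). For XLOC_008519 the changes were 0.27 at 2 h, which did not pass, and 0.81 at 4 h, a difference of 0.54 (edgeR adjusted p = 0.00126), under 2-fold. In each of the 4 loci all 3 libraries at 4 h were above all 3 at 2 h. The test picked these loci, so that is no separate fact, and the share of all loci was not counted.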

How the results depend on the processing

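The number of loci that met the rule moved most with its settings. It was 665 at a threshold of 1.2-fold and 3 at 2-fold, 59 with a minimum mean of 200, 590 with no length limit and 31 with lengths above the 50th percentile. It was 153 without total 0 h replicate 2, 141 without polysomal 4 h replicate 3 and 66 without polysomal 4 h replicate 1, the ends of its range over libraries left out being 66 and 153. Other settings gave 79 to 141, and an estimate complete in each of the 12 libraries, a setting chosen after seeing the data, gave 96. For the 96 loci kept fixed, the median change was from -0.81 to -0.74 at 2 h and from -0.77 to -0.65 at 4 h over all alternatives, and the median 0 h ratio was 0.67 with the base median set to 0 and from 0.59 to 0.63 with a library left out. Calls in total RNA at 2 h numbered 4 over all loci with at least 1 count (3 higher and XLOC_001609 lower), beside 134 of the 22320 loci tested. With the compared time points alone 1 was called, beside 46 of 12222. With a library left out from 0 to 2 were called, beside 34 to 62 of all loci tested. The number was 0 without total 0 h replicate 2, beside 43 of 12809, and 0 without total 2 h replicate 1, beside 34 of 12851. Without total 0 h replicate 2, 14 had an unadjusted p under 0.05 in edgeR, beside 1466 of the 12809 loci tested. At 4 h in total RNA, 27 were called with no minimum fold, beside 3841 of the 12606 loci tested. With a library left out 9 to 10 were called, beside 970 to 1116 of all loci tested. XLOC_030749 was lost without total 0 h replicate 2 and without total 4 h replicate 2, where XLOC_005362 was called lower in its place. For polysomal against total RNA at 4 h, 18 were called with no minimum fold, beside 3309 of the 12575 loci tested. Otherwise 3 to 4 were called, beside 415 to 744 of all loci tested. The fourth was XLOC_014093, which was higher in polysomal RNA while the other 3 were lower. With the replicate number as a block the calls were 2, 10 and 3, beside 51, 1072 and 614 of all loci tested. Only the 2 fractions at 4 h were seen to pair by number, so the block bears on pairing for the 3 alone. There 42 of the 96 had an unadjusted p under 0.05 in edgeR with the block, beside 5885 of the 12575 loci tested. Without the block these were 34 and 4952. Upper-quartile normalization moved the median log2 change of all loci in total RNA at 4 h from -0.02 to -0.15, and that of the 96 loci from 0.19 to 0.07. With it 499 of all loci tested were called higher and 619 lower, against 640 and 438 in the main setting. Of the 96 loci, 10 were called higher and 0 lower in both. No value called in the main setting changed its direction. The higher call added at 2 h over all loci with at least 1 count was XLOC_014265. Its log2 change at 2 h was 1.01 in the main setting and -0.53 without total 2 h replicate 1. No spread could be given for polysomal RNA before 4 h, and loci near 50 fragments carry the largest counting error.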
